A study of Mus musculus with 15 samples.

Results

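The genes described here are 41 mouse genes of DNA replication and the S phase, out of 42807 gene symbols in the count table. They were picked by symbol, for their known function, with earlier results of these data known. All 41 were found, and all 41 passed the filter on low counts that left 14461 genes for testing. They were read in 15 mRNA libraries of C2C12 myotubes, 3 libraries in each of 5 groups. C2C12 is a clonal mouse myoblast line whose cells fuse into myotubes when serum is lowered, and every culture had differentiated for 6 days before a further 24 h of treatment. One group was left non-treated, one received the vehicle (0.1% DMSO), and the others received Jakyak-gamcho-tang (JGT), made by refluxing peony root with licorice root in hot water, at 20, 100 or 500 µg/mL. The labels name no genetic change and no agent other than DMSO and JGT. The stock of JGT contained 2% DMSO at 10 mg/mL, which by dilution alone would give 0.004%, 0.02% and 0.1% DMSO at the 3 doses, and whether DMSO was evened out is not stated. The top dose was chosen by the submitters as one leaving 80% of cells viable.

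Total counts per library ran from 26012844 to 36854199, and single members had between 22 counts (Orc1) and 4162 counts (Rrm2) in a library. Markers of myotubes were high in all 15 libraries: Acta1, skeletal muscle actin, lay at 4077 to 5185 CPM (counts scaled to a common library size), Myog, the transcription factor myogenin, at 745 to 992 CPM, and Ckm, muscle creatine kinase, at 224 to 329.8 CPM. Pax7, which marks satellite and reserve cells, was also present, at 23.4 to 33.8 CPM. Replicate pairs differed most within JGT 500 µg/mL, where the mean chi-square per gene was 8.5 to 35.7, against 2.01 to 9.51 within the other groups. The values of 21.7 and 35.7 at that dose both involved replicate 2. Without it, 36 of the 41 genes were still called lower than vehicle, with a median log2 fold change of −0.56 in place of −0.58. Separate cultures for the libraries of a group are not stated in the labels, and the p-values below measure the spread between libraries, which may be technical. The titles of all 15 libraries begin with Batch1, but the 6 control libraries carry sample codes of another series than the 9 JGT libraries. A difference of all JGT from all control libraries cannot be told apart from a difference between those codes.

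DNA replication is prepared in G1, when the origin recognition complex, Cdc6 and Cdt1 load the ring-shaped MCM helicase onto origins, a step called licensing. In S phase, Cdc45, the GINS complex and Mcm10 switch the helicase on, DNA polymerase alpha with its primase lays down primers, and polymerases epsilon and delta copy the leading and lagging strands with the sliding clamp PCNA. Dividing myoblasts do this in every cycle, whereas nuclei of myotubes have left the cell cycle for good, and part of a differentiated C2C12 culture remains mononucleated. Many of these genes are known targets of E2F transcription factors, which the retinoblastoma family of proteins holds in check in arrested cells.

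Promoter windows were searched because genes that are switched together often share such elements. RefSeq windows of GRCm38.p6, from 250 bases before to 50 bases after a start site, were given for 34 of the 41 genes. Mcm4, Gins1, Gins2, Prim2, Pole, Ccna2 and Ccne2 are named only. An E2F-type octamer (TTTCCCGC, TTTCGCGC, TTTGCCGC or TTTGGCGC, on either strand and overlapping matches allowed) was present in 15 of the 34 genes, or 44.1%, against 4.5% of the 10139 tested genes with a window and 2.6% of all 27025 genes with one. The CCAAT box (CCAAT or ATTGG) was present in 58.8% of the 34 genes and in 42.9% of tested genes. The CHR element (TTTGAA or TTCAAA), known from mitotic promoters, was present in 4 of the 34 genes (11.8%) and in 14.1% of tested genes. Among 24 mitotic genes with a window the shares ran the other way, with the octamer in 4.17% and the CHR element in 70.8%. Of 48 other replication genes with a window, 27.1% held the octamer and 22.9% the CHR element. By role, the octamer was found in 7 of 9 licensing genes with a window, in 3 of 5 polymerase and primase genes and in 0 of 5 nucleotide supply genes. The 15 genes with the octamer had a median log2 fold change of −0.66 at 500 µg/mL, and the 19 without it −0.47, with ranges of −1.65 to −0.16 and −1.22 to 0.00 that overlap widely. A match is a run of letters and not a shown binding site, and no match says only that these letters are not in the window.

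**Figure D1:**
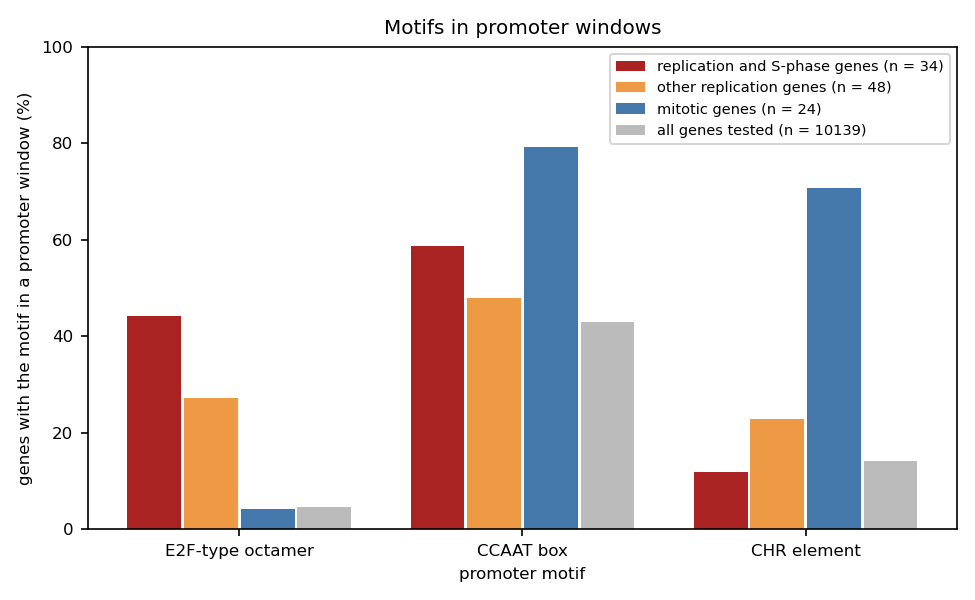
Share of genes (%) with at least one promoter window holding an E2F-type octamer, a CCAAT box or a CHR element, for the replication and S-phase genes (n = 34), other replication genes (n = 48), mitotic genes (n = 24) and all tested genes with a window (n = 10139). The octamer is in 44.1% of the replication and S-phase genes, 27.1% of the other replication genes and 4.5% of all tested genes. The CHR element is in 70.8% of the mitotic genes.

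The 190 bases before the start site are shown for 6 members that differ in response. Cdc6, Mcm5 and Uhrf1 are among those that fell furthest at 500 µg/mL, Mcm7 and Gins3 fell least in their roles although they hold the octamer, and Rrm2 holds none and fell least among the nucleotide genes. Capitals mark the octamer, the CCAAT box and, in Gins3, the CHR element (TTTGAA), and each is written 5′ to 3′ on the strand of the gene, in GRCm38.p6. Uhrf1 and Mcm7 have 2 windows each, of which the one with the octamer is shown; the other holds the CCAAT box and no octamer.
Cdc6, chr11:98907961-98908150 (+ strand): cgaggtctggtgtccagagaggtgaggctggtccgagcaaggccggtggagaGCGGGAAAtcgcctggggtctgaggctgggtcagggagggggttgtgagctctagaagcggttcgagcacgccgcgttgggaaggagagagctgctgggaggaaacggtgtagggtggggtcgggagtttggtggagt
Mcm5, chr8:75109319-75109508 (+ strand): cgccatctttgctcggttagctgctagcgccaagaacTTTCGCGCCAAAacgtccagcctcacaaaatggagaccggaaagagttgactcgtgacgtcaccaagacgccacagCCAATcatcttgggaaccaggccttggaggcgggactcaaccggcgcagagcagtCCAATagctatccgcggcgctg
Mcm7, chr5:138171884-138172073 (- strand): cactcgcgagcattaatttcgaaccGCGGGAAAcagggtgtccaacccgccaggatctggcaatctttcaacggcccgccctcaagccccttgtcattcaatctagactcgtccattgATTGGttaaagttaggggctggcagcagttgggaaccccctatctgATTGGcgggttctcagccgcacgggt
Gins3, chr8:95633369-95633558 (+ strand): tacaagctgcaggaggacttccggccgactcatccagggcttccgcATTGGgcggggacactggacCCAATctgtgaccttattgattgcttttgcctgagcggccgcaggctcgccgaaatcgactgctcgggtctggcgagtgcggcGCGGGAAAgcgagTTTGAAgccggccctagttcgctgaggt
Uhrf1, chr17:56304123-56304312 (+ strand): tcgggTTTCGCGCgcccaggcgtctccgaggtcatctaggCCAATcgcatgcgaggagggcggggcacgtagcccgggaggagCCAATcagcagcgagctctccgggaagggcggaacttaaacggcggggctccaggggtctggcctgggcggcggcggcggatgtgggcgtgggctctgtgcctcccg
Rrm2, chr12:24708064-24708253 (+ strand): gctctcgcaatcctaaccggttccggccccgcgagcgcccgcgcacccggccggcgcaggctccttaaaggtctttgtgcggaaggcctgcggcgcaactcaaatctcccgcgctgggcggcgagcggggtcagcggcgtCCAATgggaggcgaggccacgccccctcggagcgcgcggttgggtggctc
In Mcm5 the octamer stands at positions −153 to −142 from the start site, as 2 overlapping matches on opposite strands. Cdc6, with the largest fall of all 41 genes, holds 1 octamer and no CCAAT box. Mcm7, which fell by 0.29 on the log2 scale, holds the same octamer as Cdc6, on the same strand and at positions −165 to −158, along with CCAAT boxes. Its window holds another octamer at positions 17 to 24, after the start site and outside the bases shown.

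At 500 µg/mL most of the 41 genes fell together. The 41 genes summed to 969.1, 986.3 and 962.7 CPM in the non-treated libraries, 849.7, 868.1 and 861.8 CPM in vehicle, 827.5, 828.8 and 838.3 CPM at 20 µg/mL, 768.4, 759.3 and 773.4 CPM at 100 µg/mL and 598.3, 608.9 and 605.8 CPM at 500 µg/mL. No 2 groups overlapped in this sum, which stood at 70.3% of the vehicle mean at 500 µg/mL, 89.2% at 100 µg/mL and 96.7% at 20 µg/mL. Against vehicle, 36 of the 41 genes were called lower at 500 µg/mL and 0 higher (edgeR's quasi-likelihood test, Benjamini-Hochberg adjusted p below 0.05 over all 14461 genes), where 16.8% of all tested genes were called lower and 16.5% higher. For 37 of the 41 every 500 µg/mL library lay below every vehicle library, which 20.3% of tested genes did. The median log2 fold change of the 41 genes was −0.58, beside 0.01 over all tested genes. DESeq2 also called 36 lower and 0 higher. In edgeR, 37 had an unadjusted p under 0.05 as lower and 0 as higher, and the share of all tested genes was not computed. Every member had its lowest group mean at 500 µg/mL, a pattern whose share over all tested genes was not computed. The margin was slight for Pola2 (11.93 against 11.94 CPM in vehicle) and Rpa2 (11.29 against 11.33 CPM at 100 µg/mL). For 33 of the 41, all 3 libraries at 500 µg/mL lay below all 12 others, which held for 9.39% of tested genes. In bulk RNA, fewer cells in S phase and less of these mRNAs in each cell cannot be told apart.

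**Figure D2:**
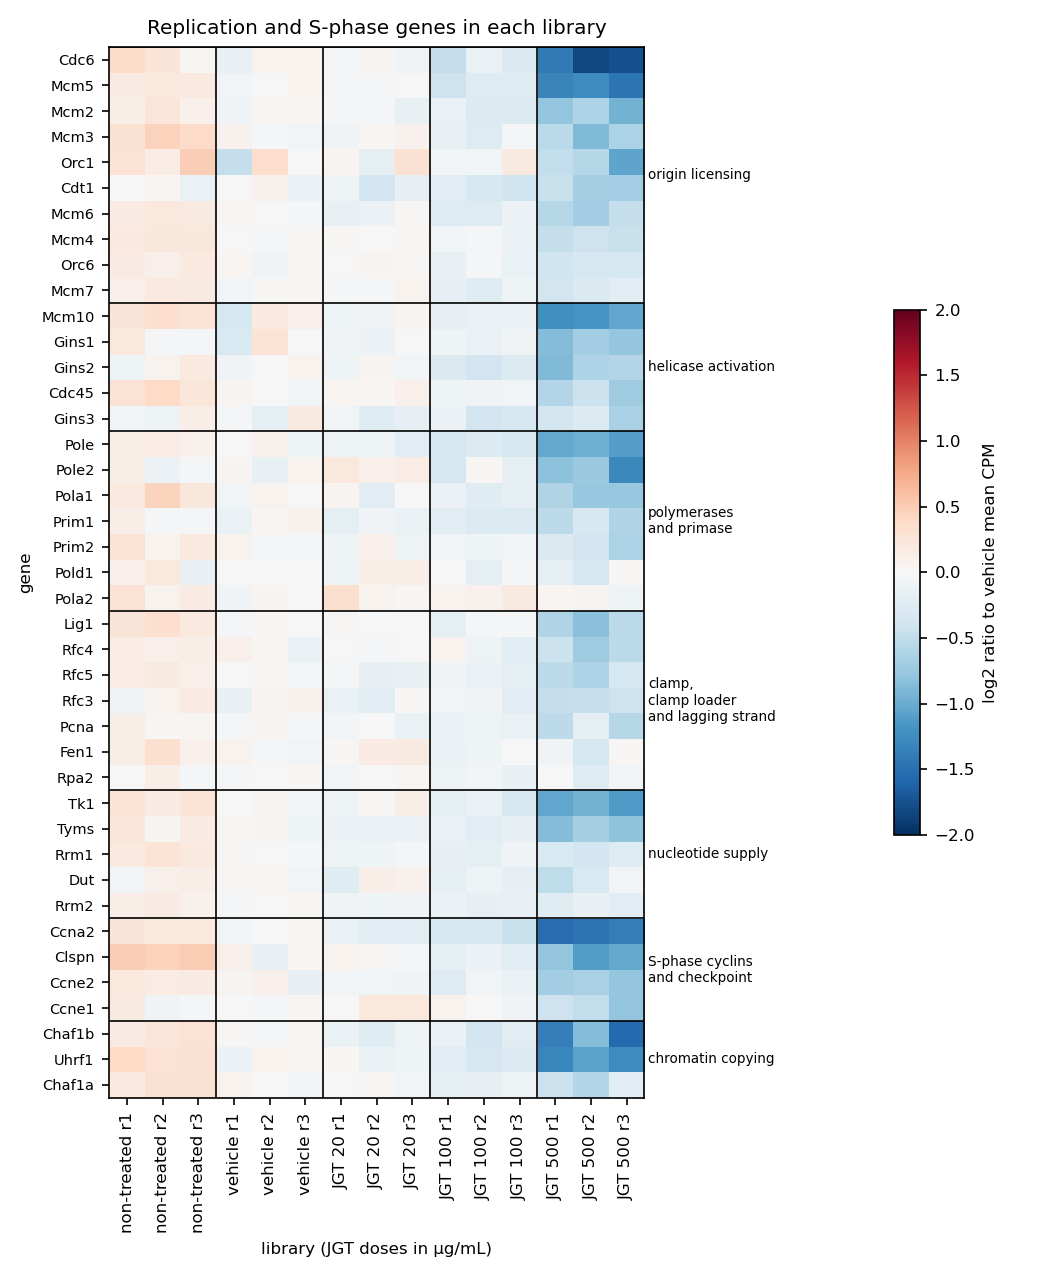
Log2 ratio of CPM to the vehicle mean for 41 genes (rows, grouped by role and ordered by the fall at 500 µg/mL) in 15 libraries (columns; r1 to r3 are replicates). The 3 libraries at 500 µg/mL are the lowest in 33 rows, while Pola2, Rpa2, Fen1 and Pold1 stay near their vehicle level.

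The fall was uneven between roles and between genes. Relative to the vehicle mean, the summed level at 500 µg/mL was 45.1% for the S-phase cyclins and checkpoint gene Clspn, 54.1% for the chromatin copying genes, 63.5% for helicase activation, 67.0% for licensing, 70.8% for polymerases and primase, 75.8% for the clamp, its loader and the lagging strand genes, and 80.5% for nucleotide supply. Because sums are led by their most abundant members, the medians of the single genes are given with each role below. Of the 41 genes, 8 were at or below 0.5 of their vehicle level, 23 lay between 0.5 and 0.75, and 10 lay above 0.75. Leaving out any one library of the 2 groups left 34 to 36 genes called lower.

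**Figure D3:**
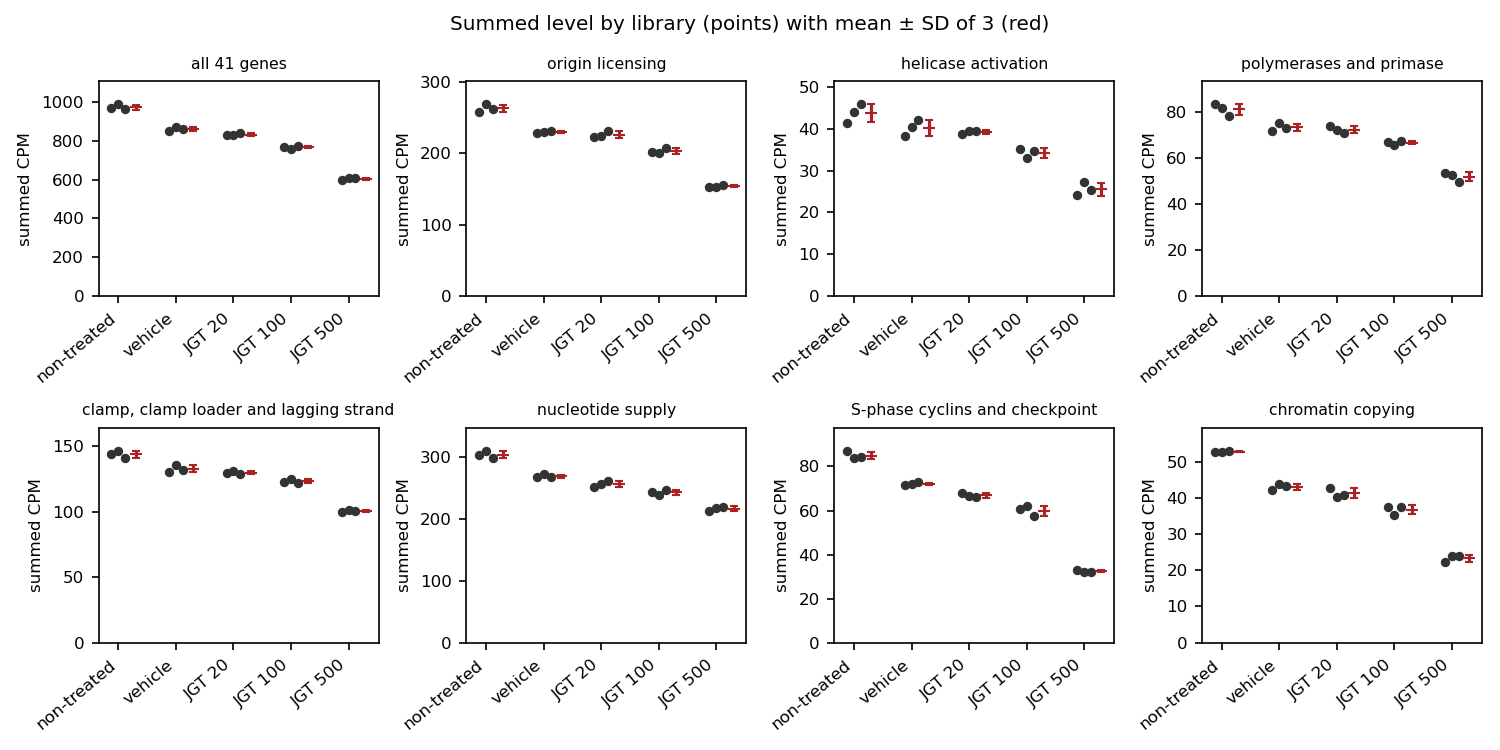
Summed CPM of all 41 genes and of the genes of each of 7 roles in each library (points), with the mean ± SD of 3 libraries beside them, by group (JGT doses in µg/mL). The sum over all genes falls from 859.9 CPM in vehicle to 604.3 CPM at 500 µg/mL with no overlap, and the cyclin and checkpoint sum from 72.0 to 32.5 CPM.

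Licensing genes fell in all 10 of 10 cases at 500 µg/mL, with a median log2 fold change of −0.63. Cdc6, the loader that brings the MCM helicase to the origin, had the largest fall of all members. Its level was 5.99, 5.56 and 4.73 CPM in non-treated, 4.19, 4.86 and 4.85 in vehicle, 4.56, 4.798 and 4.42 at 20, 3.32, 4.23 and 3.78 at 100, and 1.74, 1.32 and 1.38 at 500 µg/mL. The 500 µg/mL libraries lay below all others, and the 3 at 20 µg/mL lay within the vehicle range. The log2 fold change at 500 µg/mL, here and below with its SE, was −1.65 ± 0.140 (adjusted p = 1.39e-08). Mcm5, a subunit of the MCM ring, showed the second largest fall of this role: 22.6, 23.3 and 23.1 CPM in non-treated, 19.3, 19.98 and 21.0 in vehicle, 19.8, 19.7 and 20.2 at 20, 15.1, 16.8 and 17.02 at 100, and 8.08, 8.44 and 7.34 at 500 µg/mL. It was already below every vehicle library at 100 µg/mL (−0.30, adjusted p = 0.00373), and it was the only member called between 20 and 100 µg/mL (−0.29, adjusted p = 0.0257), a call lost on leaving out any library of those groups but JGT 100 replicate 3. At 500 µg/mL its libraries lay far below all others (log2 −1.33 ± 0.0646, adjusted p = 2.49e-12). Mcm7, another subunit of the same ring, fell least: 44.2, 47.5 and 46.9 CPM in non-treated, 39.7, 42.04 and 42.4 in vehicle, 40.6, 40.4 and 43.3 at 20, 36.9, 34.8 and 39.0 at 100, and 31.97, 33.9 and 35.3 at 500 µg/mL. The 500 µg/mL libraries overlapped those at 100 µg/mL and lay below vehicle (log2 −0.29 ± 0.0516, adjusted p = 0.00017). Between these, Mcm2 (−0.77), Mcm3 (−0.68), Orc1 (−0.66), Cdt1 (−0.59), Mcm6 (−0.58), Mcm4 (−0.44) and Orc6 (−0.36) fell as well. Orc1 and Orc6 are subunits of the origin recognition complex, and Cdt1 is the partner of Cdc6 in loading. Orc1 is the member with the fewest counts, and its call (adjusted p = 0.0235) was lost without vehicle replicate 2 (0.149), vehicle replicate 3 (0.0627) or JGT 500 replicate 3 (0.103), and in a fit of these 2 groups only (0.0733).

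The MCM ring holds its subunits in equal number, so their mRNA levels were compared per kb of exon, counting all annotated exons (GENCODE M21). In vehicle they were highest for Mcm4 (10.4 ± 0.229 CPM per kb), Mcm6 (10.0 ± 0.208) and Mcm7 (9.35 ± 0.325), followed by Mcm3 (5.54 ± 0.299), Mcm5 (5.04 ± 0.210) and Mcm2 (4.18 ± 0.155), each as mean ± SD of 3 libraries. At 500 µg/mL the values were 7.62 ± 0.183 for Mcm4, 7.62 ± 0.379 for Mcm7, 6.73 ± 0.512 for Mcm6, 3.47 ± 0.414 for Mcm3, 2.44 ± 0.283 for Mcm2 and 1.99 ± 0.141 for Mcm5. Per kb, Mcm5 stood above Mcm2 in vehicle and below it at 500 µg/mL. Before scaling by length (3993 bases for Mcm5, 6956 for Mcm2), Mcm5 was below Mcm2 in both groups. The means were 20.1 and 29.1 CPM in vehicle, and 7.95 and 16.95 CPM at 500 µg/mL. Mcm4 and Mcm6, and Mcm3 and Mcm5, lay within their summed SDs of each other in vehicle, as did Mcm4 and Mcm7 at 500 µg/mL, where Mcm6 and Mcm7 differed by about their summed SDs. The order of those neighbours is not resolved. Order and ratios between subunits also rest on the exon lengths, which need not be those of the mRNAs expressed here. Changes of a subunit between groups do not. The highest subunit stood 2.49 times above the lowest in vehicle and 3.83 times at 500 µg/mL. The ratio of Mcm5 to Mcm7 per kb was 0.540, 0.527 and 0.549 in the 3 vehicle libraries, 0.541, 0.541 and 0.517 at 20 µg/mL, 0.455, 0.534 and 0.484 at 100 µg/mL and 0.280, 0.276 and 0.230 at 500 µg/mL. This pair was chosen for its difference, so the ratio is given without a test. The pairs Pola1 and Pola2, Tk1 and Rrm2, and Chaf1b and Chaf1a below were also chosen with earlier results of these data known. The lowest ratio of Mcm5 to Mcm7 outside 500 µg/mL was 0.455, above the highest at that dose, 0.280.

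**Figure D4:**
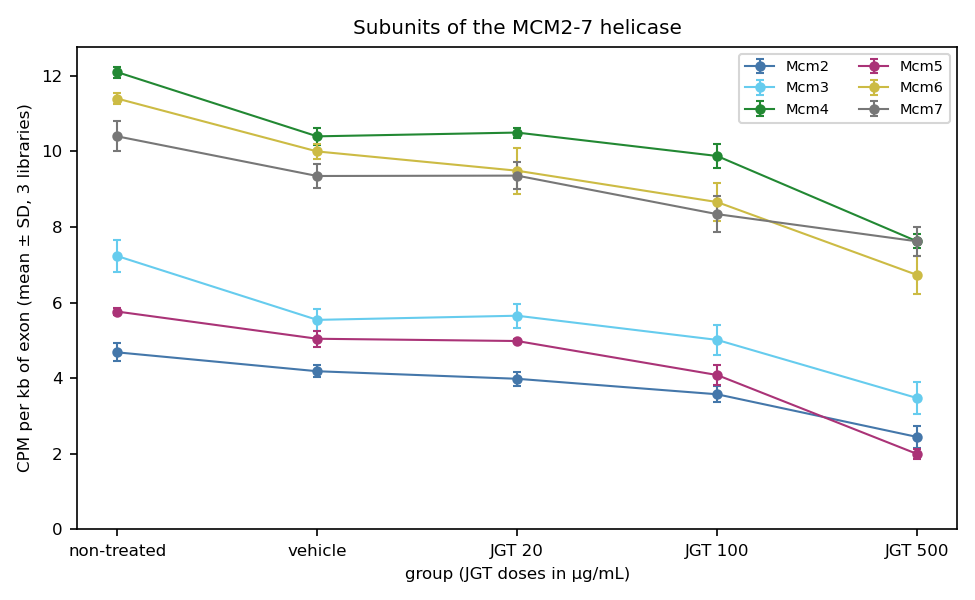
Level of the 6 subunits of the MCM helicase in CPM per kb of exon, as mean ± SD of 3 libraries, in each group (JGT doses in µg/mL). Mcm5 falls from 5.04 in vehicle to 1.99 at 500 µg/mL, whereas Mcm7 goes from 9.35 to 7.62.

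All 5 genes that activate the helicase fell at 500 µg/mL (median −0.69). Mcm10, which helps the ring open the DNA, led them with 4.68, 4.93 and 4.73 CPM in non-treated, 3.08, 4.47 and 4.18 in vehicle, 3.67, 3.74 and 4.08 at 20, 3.48, 3.57 and 3.59 at 100, and 1.67, 1.70 and 1.91 at 500 µg/mL. The vehicle libraries were spread, and the 500 µg/mL libraries lay below the lowest of them (log2 −1.15 ± 0.135, adjusted p = 1.34e-06). Gins1, a GINS subunit of low level, was at 2.52, 2.13 and 2.14 CPM in non-treated, 1.76, 2.62 and 2.16 in vehicle, 2.07, 2.01 and 2.17 at 20, 2.06, 1.98 and 2.07 at 100, and 1.201, 1.35 and 1.27 at 500 µg/mL. Its 500 µg/mL libraries were again below all 12 others (log2 −0.76 ± 0.156, adjusted p = 0.000795). Gins3, another GINS subunit, fell least, with 7.59, 7.31 and 8.61 CPM in non-treated, 7.67, 6.94 and 8.93 in vehicle, 7.596, 6.602 and 7.03 at 20, 7.23, 5.99 and 6.29 at 100, and 6.07, 6.48 and 5.01 at 500 µg/mL. Its groups at 100 and 500 µg/mL overlapped, and the call against vehicle (log2 −0.42, adjusted p = 0.00694) was lost without vehicle replicate 3 (−0.32, adjusted p = 0.0601). Against JGT 20 it was not called (−0.27, adjusted p = 0.0912). Gins2 (−0.69) and Cdc45 (−0.56), the other parts of the active helicase, fell too.

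Of the 7 polymerase and primase genes, 5 fell and 2 were not called (median −0.47). Pole, the catalytic subunit of the leading-strand polymerase epsilon, was at 18.6, 18.8 and 18.1 CPM in non-treated, 16.9, 18.1 and 16.1 in vehicle, 15.9, 16.1 and 14.6 at 20, 13.5, 14.2 and 13.6 at 100, and 8.34, 8.62 and 7.94 at 500 µg/mL. At 500 µg/mL it stood at 0.488 of its vehicle level (log2 −1.03 ± 0.0648, adjusted p = 1.3e-10) and was already lower at 100 µg/mL (−0.31, adjusted p = 0.0042). Pole2, its accessory subunit, was at 3.65, 3.11 and 3.29 CPM in non-treated, 3.52, 3.05 and 3.54 in vehicle, 3.895, 3.61 and 3.74 at 20, 2.65, 3.41 and 2.98 at 100, and 1.902, 2.02 and 1.38 at 500 µg/mL and its fall lay within the summed SEs of that of Pole (log2 −0.92 ± 0.145, adjusted p = 5.07e-05). Pola1, the catalytic subunit of polymerase alpha (−0.70), and the primase subunits Prim1 (−0.47) and Prim2 (−0.42) fell by smaller amounts. Pola2, the accessory subunit of polymerase alpha, was at 14.7, 12.5 and 13.4 CPM in non-treated, 11.4, 12.4 and 12.03 in vehicle, 14.8, 12.6 and 12.2 at 20, 12.6, 12.7 and 13.6 at 100, and 12.3, 12.4 and 11.1 at 500 µg/mL. Its vehicle and 500 µg/mL libraries overlapped, with a log2 difference of 0.00 (95% interval −0.18 to 0.18, adjusted p = 0.988). That interval leaves out the fall of Pola1. The ratio of Pola1 to Pola2 per kb, given without a test, went from 1.05, 1.04 and 1.02 in vehicle to 0.658, 0.592 and 0.662 at 500 µg/mL. Pold1, the catalytic subunit of the lagging-strand polymerase delta, was not called either (−0.16, 95% interval −0.39 to 0.07, adjusted p = 0.241).

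Among the clamp, clamp loader and lagging strand genes, 5 of 7 fell (median −0.45). Lig1, the ligase that seals Okazaki fragments, was at 25.3, 26.6 and 24.2 CPM in non-treated, 20.7, 21.6 and 21.4 in vehicle, 21.7, 21.0 and 21.2 at 20, 18.6, 20.6 and 20.6 at 100, and 14.02, 11.8 and 14.7 at 500 µg/mL. Its 3 libraries at 500 µg/mL were far below the others, which lay close together from vehicle to 100 µg/mL (log2 −0.66 ± 0.0693, adjusted p = 3.26e-07). Rfc4, a subunit of the clamp loader, was at 4.93, 4.75 and 4.88 CPM in non-treated, 4.77, 4.55 and 4.04 in vehicle, 4.42, 4.36 and 4.45 at 20, 4.68, 4.15 and 3.86 at 100, and 3.304, 2.73 and 3.07 at 500 µg/mL and fell by a similar amount (log2 −0.56 ± 0.109, adjusted p = 0.000489), beside its partners Rfc5 (−0.50) and Rfc3 (−0.45). Pcna, the clamp itself, also fell (log2 −0.42, adjusted p = 0.00017), with JGT 500 replicate 2 at 48.1 CPM between the other 2 libraries of that dose (38.5 and 36.9) and vehicle. Rpa2, a subunit of the protein that coats single-stranded DNA, was at 12.1, 13.3 and 11.97 CPM in non-treated, 11.9, 12.2 and 12.3 in vehicle, 11.7, 12.2 and 12.5 at 20, 11.3, 11.7 and 10.9 at 100, and 12.1, 10.2 and 11.6 at 500 µg/mL. Vehicle and 500 µg/mL overlapped. Its difference at 500 µg/mL was −0.11 (95% interval −0.27 to 0.05, adjusted p = 0.26). Fen1, the nuclease that trims Okazaki fragments, was not called against vehicle (−0.13, 95% interval −0.31 to 0.06, adjusted p = 0.265), but was against JGT 20 (−0.25, adjusted p = 0.0341).

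Of the 5 nucleotide supply genes, 4 fell and 1 was not called (median −0.31). Tk1, the thymidine kinase of the salvage route, was at 16.3, 15.1 and 16.3 CPM in non-treated, 13.5, 14.0 and 13.01 in vehicle, 12.6, 13.8 and 14.8 at 20, 11.9, 12.4 and 10.7 at 100, and 6.58, 7.03 and 6.14 at 500 µg/mL. All 3 libraries at 500 µg/mL lay far below the rest (log2 −1.03 ± 0.0807, adjusted p = 3.83e-09). Tyms, thymidylate synthase, was at 17.1, 14.9 and 16.2 CPM in non-treated, 14.6, 15.04 and 13.6 in vehicle, 13.2, 13.2 and 13.3 at 20, 13.1, 12.3 and 12.8 at 100, and 7.88, 9.11 and 8.29 at 500 µg/mL, again with 500 µg/mL apart from all other groups (log2 −0.77 ± 0.0714, adjusted p = 4.91e-08). Both enzymes supply dTMP, which is used for DNA. Ribonucleotide reductase, which makes all deoxynucleotides, had smaller falls. Its small subunit Rrm2, the most abundant member, was at 133, 135 and 129 CPM in non-treated, 118, 122 and 124 in vehicle, 115, 114 and 115 at 20, 111, 108 and 109 at 100, and 102, 109.5 and 103 at 500 µg/mL. The groups stepped down by little, and 500 µg/mL overlapped 100 µg/mL (log2 −0.21 ± 0.0364, adjusted p = 0.000181). Its large subunit Rrm1 fell as well (log2 −0.31, adjusted p = 8.96e-06). Dut, which removes dUTP, was not called (−0.28, adjusted p = 0.0517), but was without JGT 500 replicate 3 (−0.39, adjusted p = 0.00933), with no filter on low counts (0.0381) and with replicate number as a block (0.0275). Tk1 stood at 0.0612, 0.0611 and 0.0561 of the Rrm2 level per kb in vehicle and at 0.0343, 0.0342 and 0.0318 at 500 µg/mL.

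Cyclins and the checkpoint gene fell in 4 of 4 cases (median −0.84). Ccna2, the cyclin that drives S phase and entry to mitosis, was at 53.3, 52.02 and 51.7 CPM in non-treated, 43.2, 44.97 and 46.1 in vehicle, 40.6, 38.3 and 38.4 at 20, 35.8, 35.7 and 32.8 at 100, and 15.6, 16.1 and 17.2 at 500 µg/mL. The JGT groups stepped down with dose, and none of the 9 libraries overlapped vehicle. The fall at 500 µg/mL had the smallest p of all members (log2 −1.46 ± 0.0510, adjusted p = 2.05e-14), and the call at 100 µg/mL held as well (−0.36, adjusted p = 6.35e-05). Clspn, the adaptor that passes the replication stress signal to the kinase Chk1, was at 13.8, 13.5 and 13.96 CPM in non-treated, 10.5, 8.87 and 10.1 in vehicle, 10.4, 10.01 and 9.58 at 20, 8.59, 9.098 and 8.52 at 100, and 5.71, 4.51 and 4.83 at 500 µg/mL. Its non-treated libraries were above, and its 500 µg/mL libraries below, all other groups (log2 −0.97 ± 0.0894, adjusted p = 4.25e-08). Ccne1, a cyclin of the G1 to S transition, fell least of this role: 8.26, 6.92 and 7.17 CPM in non-treated, 7.27, 7.13 and 7.45 in vehicle, 7.21, 8.47 and 8.39 at 20, 7.66, 7.28 and 6.92 at 100, and 5.44, 5.19 and 4.23 at 500 µg/mL. Its libraries at 20 and 100 µg/mL overlapped vehicle, and those at 500 µg/mL lay below all others (log2 −0.55 ± 0.103, adjusted p = 0.000311). Its relative Ccne2 fell by 0.70 on the log2 scale.

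The 3 genes that copy chromatin fell (median −1.20). Chaf1b, the middle subunit of the histone chaperone CAF-1, was at 8.23, 8.67 and 8.97 CPM in non-treated, 7.47, 7.13 and 7.45 in vehicle, 6.68, 6.23 and 6.86 at 20, 6.68, 5.66 and 6.32 at 100, and 2.84, 4.01 and 2.505 at 500 µg/mL. JGT 500 replicate 2 was higher than replicates 1 and 3, and all 3 lay below the other groups (log2 −1.22 ± 0.124, adjusted p = 1.79e-07). Uhrf1, which guides DNA methylation to newly copied strands, was at 27.8, 25.9 and 25.9 CPM in non-treated, 19.4, 22.2 and 21.6 in vehicle, 21.7, 19.1 and 19.9 at 20, 18.1, 16.7 and 17.5 at 100, and 8.58, 10.1 and 8.78 at 500 µg/mL. It fell at 500 µg/mL (log2 −1.20 ± 0.0737, adjusted p = 9.88e-11) and, less, at 100 µg/mL (−0.27, adjusted p = 0.0204). Chaf1a, the large subunit of CAF-1, had the smallest fall of this role: 16.7, 18.04 and 18.02 CPM in non-treated, 15.3, 14.5 and 14.1 in vehicle, 14.5, 14.8 and 14.1 at 20, 12.8, 12.97 and 13.7 at 100, and 10.8, 9.70 and 12.6 at 500 µg/mL. The highest library at 500 µg/mL, replicate 3, lay just below the lowest at 100 µg/mL (log2 −0.41 ± 0.0768, adjusted p = 0.00033). The ratio of Chaf1b to Chaf1a per kb was 0.925, 0.933 and 1.00 in vehicle and 0.496, 0.783 and 0.376 at 500 µg/mL.

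At 100 µg/mL, 7 of the 41 genes fell against vehicle and 0 rose, where 2.22% of all tested genes were called lower and 2.09% higher. They were Ccna2, Mcm5, Pole, Gins2 (−0.32, adjusted p = 0.0197), Uhrf1, Rrm2 (−0.14, 0.0267) and Mcm6 (−0.21, 0.0311). The median of the 41 genes was −0.15 (0.00 over all tested genes), and for 23 of them every 100 µg/mL library lay below every vehicle library, which 13.3% of tested genes did. The count of 7 was 3 without vehicle replicate 2, vehicle replicate 3 or JGT 100 replicate 2, 4 without JGT 100 replicate 1, and 14 in a fit of these 2 groups alone. Over all genes, the 623 called were 319 to 421 on leaving out a library. At 20 µg/mL 0 genes were called in either direction (edgeR, and DESeq2 also 0), where 0.152% of tested genes were called lower and 0.173% higher. Without overlap, 6 lay below vehicle, as 10.8% of tested genes did. An unadjusted p under 0.05 was found for 3, all 3 lower, and the share of all tested genes was not computed. Over all genes, the 47 called were 12 to 39 on leaving out a library. The median at that dose was −0.03, and the fit of these 2 groups alone called 1. Without evening out, DMSO would be 0.004% at 20 and 0.02% at 100 µg/mL, against 0.1% in vehicle. The effects of JGT and of less DMSO could then not be told apart at these doses.

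**Figure D5:**
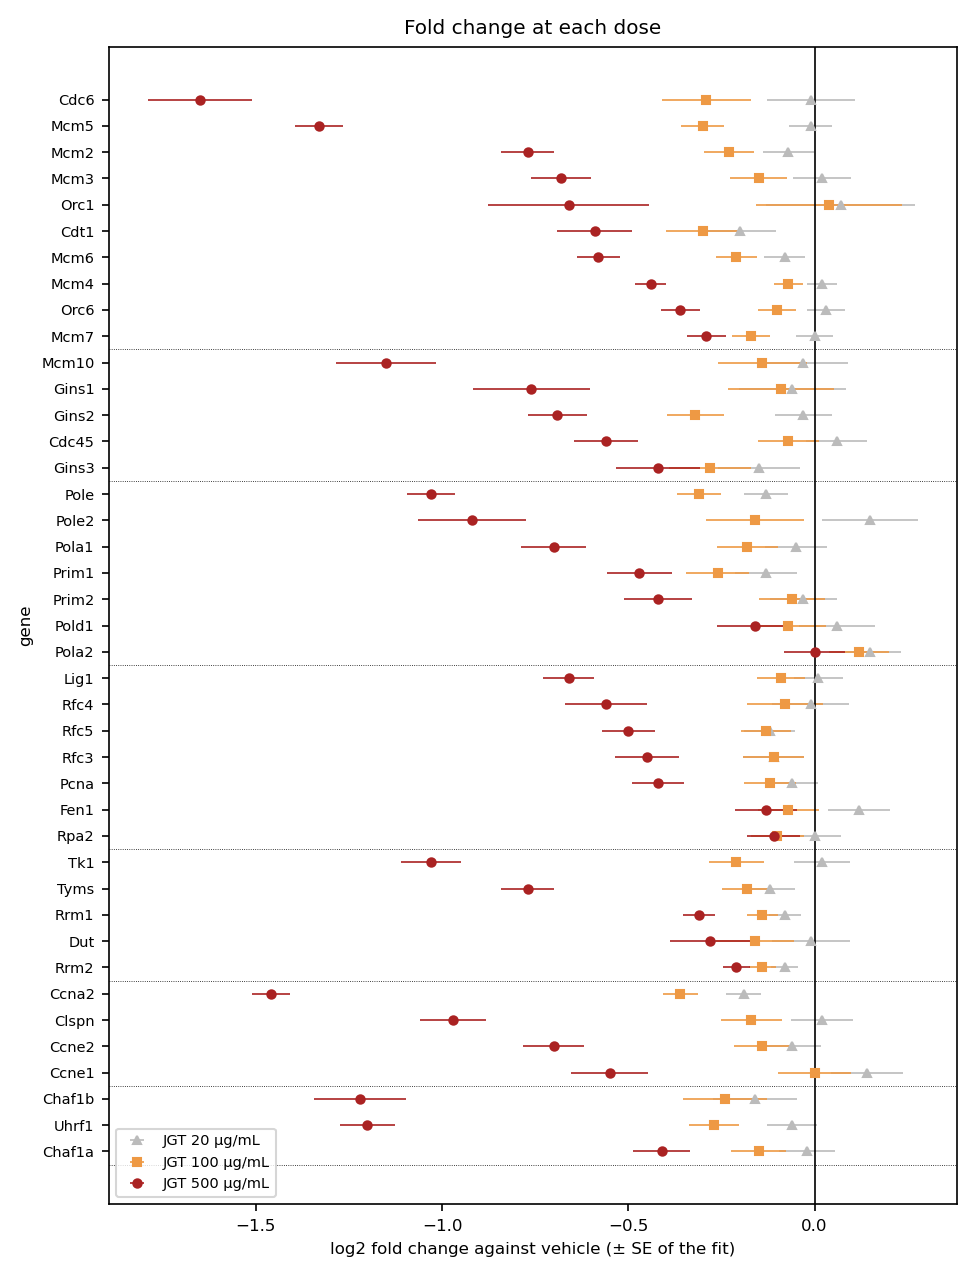
Log2 fold change against vehicle (± SE of the fit) at 20, 100 and 500 µg/mL for the 41 genes, grouped by role between dotted lines. Values at 500 µg/mL run from −1.65 for Cdc6 to 0.00 for Pola2, while those at 20 µg/mL lie between −0.20 and 0.15. The 3 comparisons share the vehicle libraries.

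Comparisons between doses contrast only JGT libraries, not one series of codes with another, but scaling and spread come from all 15 libraries. If DMSO was not evened out, it would also differ between doses, at 0.004%, 0.02% and 0.1%. JGT and DMSO could then not be told apart. From 20 to 500 µg/mL, 36 of the 41 genes fell and 0 rose (12.2% of all tested genes were called lower and 11.1% higher), with a median of −0.63 beside 0.01 over all tested genes, and 37 did not overlap in that direction (16.7% of tested genes). From 100 to 500 µg/mL, 31 fell and 0 rose (10.7% of all tested genes were called lower and 9.05% higher), with a median of −0.48 and 34 without overlap (15.5% of tested genes). These shares move with single libraries: the 2853 genes called from 100 to 500 µg/mL were 5018 without JGT 500 replicate 2 and 1891 without JGT 100 replicate 2, and the 3369 called from 20 to 500 µg/mL were 5154 without JGT 500 replicate 2. The members called lower were then 32, 31 and 36. From 20 to 100 µg/mL, 1 fell and 0 rose (0.131% of tested genes were called lower and 0.297% higher), the gene being Mcm5. At that step 21 did not overlap (8.19% of tested genes), and the median was −0.13. An unadjusted p under 0.05 as lower was found for 16, with no share over all tested genes computed to judge it by. Over all genes, the 62 called at that step were 21 to 43 on leaving out a library. Group means fell at both steps, 20 to 100 and 100 to 500 µg/mL, for 41 of 41 genes. Some of these falls were slight: Rfc3 went from 11.18 to 11.15 CPM between 20 and 100 µg/mL. Rpa2 went from 11.33 to 11.29 CPM between 100 and 500 µg/mL. Counting the step from vehicle to 20 µg/mL as well, group means of 26 genes fell at each step. The shares of all tested genes with these patterns were not computed. The 31 genes called at 500 µg/mL against JGT 100 were also called there against vehicle and against JGT 20, and Pola2, Pold1, Rpa2 and Dut were called in none of these 3 comparisons, which share the 500 µg/mL libraries.

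Vehicle alone was lower than no treatment for part of the genes. Against non-treated myotubes, 6 of the 41 were called lower in 0.1% DMSO and 0 higher, where 0.754% of all tested genes were called lower and 0.553% higher, and 25 had no overlap in that direction (13.6% of tested genes). The median was −0.17, beside 0.00 over all tested genes. The 6 were Clspn (log2 −0.48 ± 0.0805, adjusted p = 0.00573), Mcm4 (log2 −0.22 ± 0.0400, adjusted p = 0.00974), Rrm1 (log2 −0.23 ± 0.0423, adjusted p = 0.0107), Uhrf1 (log2 −0.33 ± 0.0660, adjusted p = 0.0138), Mcm3 (log2 −0.38 ± 0.0759, adjusted p = 0.0141) and Ccna2 (log2 −0.23 ± 0.0462, adjusted p = 0.0178). Mcm4 was at 42.7, 43.5 and 43.6 CPM in non-treated, 37.3, 36.3 and 37.9 in vehicle, 37.9, 37.2 and 38.2 at 20, 35.7, 36.5 and 34.3 at 100, and 26.7, 28.04 and 27.3 at 500 µg/mL. Its vehicle and JGT 20 libraries overlapped, with non-treated above and 500 µg/mL below. Mcm3 was at 25.6, 28.7 and 27.1 CPM in non-treated, 22.1, 20.3 and 19.99 in vehicle, 19.9, 21.5 and 22.2 at 20, 18.8, 17.4 and 20.3 at 100, and 14.3, 11.3 and 13.5 at 500 µg/mL, with the same order of non-treated above and 500 µg/mL below. Rrm1 was at 128, 135 and 128 CPM in non-treated, 113, 112 and 109 in vehicle, 104, 105 and 108 at 20, 99.4, 96.8 and 106 at 100, and 90.01, 85.4 and 93.3 at 500 µg/mL, and every JGT library lay below every vehicle library. Non-treated was the group with the highest mean for 37 of the 41 genes, and the share of all tested genes was not computed. The count of 6 was 2 to 4 on leaving out one library, among them 2 without non-treated replicate 3, vehicle replicate 2 or vehicle replicate 3, and 3 without non-treated replicate 2; it was 15 in a fit of these 2 groups alone. Over all genes, the 189 called were 42 to 87 on leaving out a library.

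In each further list of replication and cell cycle genes, more genes were called lower than higher at 500 µg/mL. Over all tested genes, 16.8% were called lower and 16.5% higher at 500 µg/mL against vehicle. Of 59 further replication genes, 24 fell at 500 µg/mL, 4 rose and 31 were not called, with a median of −0.07. Their summed level at that dose was 100% of the vehicle mean, but such a sum is led by its most abundant genes. Top1 alone went from a mean of 214.3 CPM in vehicle to 278 CPM at 500 µg/mL. Those with the smallest p were Asf1b, a histone chaperone (−1.32), Dtl, which targets Cdt1 for destruction (−0.90), Hells, a chromatin remodeller (−0.95), and Dbf4, the activator of the Cdc7 kinase (−0.61). The 4 that rose were Top1, a topoisomerase (0.37), Tonsl, which acts at stalled forks (0.22), Rrm2b, the p53-induced subunit of ribonucleotide reductase (0.19), and Rnaseh2a, a subunit of ribonuclease H2 (0.16). Of 24 tested regulators of the G1 to S transition, 11 fell, 2 rose and 11 were not called (median −0.14): the repressors E2f7 (−1.44) and E2f8 (−0.89) and the D-type cyclins Ccnd1 (−0.99) and Ccnd2 (−0.43) had the smallest p, and the CDK inhibitor Cdkn1a (0.19) and the pocket protein gene Rbl2 (0.15) rose. All 28 mitotic genes fell, with a median of −1.22 and a range of −1.43 to −0.71, against −1.65 to 0.00 for the replication genes. Anln, of the contractile ring (−1.27), Top2a, which untangles chromosomes (−1.09), the mitotic kinesin Kif20a (−1.04) and the kinase Plk1 (−1.43) had the smallest p. Whether the medians of these lists differ was not tested.

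Lists of cell type markers changed in both directions, beside 16.8% of all tested genes called lower and 16.5% higher. Of 18 tested myotube markers, 6 rose, 5 fell and 7 were not called at 500 µg/mL (median 0.04). Myog was among the 6 that rose (0.26). The 5 that fell were Ckm (−0.48), the calcium pump Atp2a1 (−0.37), the myosins Myh8 (−0.38) and Myh3 (−0.18) and the calcium channel Cacna1s (−0.26). The summed level of the myotube markers was 26100 to 28220 CPM at 500 µg/mL and 26200 to 27460 CPM in vehicle. Of 20 markers of myoblasts and reserve cells, 10 fell, among them the adhesion molecule Vcam1 (−0.53) and the Notch pathway genes Heyl (−0.86) and Notch1 (−0.38), Spry1, a damper of growth factor signals, rose (0.47), and 9 were not called (median −0.17), and their sum was 3057 to 3297 CPM against 3321 to 3439 CPM in vehicle. Pax7 lay at 26.8, 27.2 and 23.4 CPM at 500 µg/mL and 32.9, 29.0 and 33.2 CPM in vehicle. It was below vehicle in 3 of 3 libraries without overlap, as were 20.3% of tested genes. Of 7 tested markers of fibroblasts and adipocytes, 4 rose, among them the lipase Lpl (2.83 times its vehicle level), the receptor Pdgfra (0.71) and the surface protein Ly6a (0.44), and Pi16 (−0.58) and Dpt (−0.85) fell, with a sum of 435.6 to 498.0 CPM against 358.8 to 379.7 CPM in vehicle, while Adipoq, which defines adipocytes, had 2 counts over all 15 libraries and Fabp4 had 21. The part of these lists in the fall of the replication genes was not tested.

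On the mouse genome GRCm38 (GENCODE M21), Cdc6 lies on chromosome 11 at 98907801 to 98923940 (+ strand), Mcm5 lies on chromosome 8 at 75109569 to 75128439 (+ strand), Ccna2 lies on chromosome 3 at 36564865 to 36572150 (- strand), Uhrf1 lies on chromosome 17 at 56303321 to 56323486 (+ strand) and Pola2 on chromosome 19 at 5940542 to 5964202 (- strand). Of the 41 genes, 19 overlap a gene annotated on the opposite strand and 10 one on the same strand. The sources used here do not give the strand setting of the counting, so the values of overlapping genes are uncertain to that extent. Another 11, partly the same genes and among them Ccna2, Pcna, Gins2, Mcm7 and Fen1, have counts that are not whole. RSEM gives such counts where reads match several genes, and these values are uncertain for that reason.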

How the data were processed

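The 15 mRNA libraries of C2C12 myotubes were directional and read as 100 bp pairs, per the labels' protocols. The deposited values are expected counts per gene symbol, which the authors made before deposit; the submitters' processing notes name the build GRCm38, RSEM 1.3.3, STAR 2.7.3a, Trim Galore 0.6.5 and FastQC 0.11.9, with no roles, annotation or strand option given in the sources used here. Of all values, zeros included, 9.34% were not whole (tolerance 0.005), and expected counts were rounded before testing. 

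Groups followed the labels. Genes were kept by edgeR's filterByExpr, scaled by TMM and fitted with edgeR 4.0.16 (robust quasi-likelihood) in 1 model of all 15 libraries, whose 10 residual degrees of freedom set the spread; the biological coefficient of variation was 5.31%. P-values were adjusted by Benjamini-Hochberg over 14461 genes, with 0.05 as the threshold, and 7 comparisons were made. The script was tested on simulated counts. CPM values use TMM library sizes, the SE is the absolute log2 fold change over the square root of F, and 95% intervals are built from it with a t quantile. Total counts of 26012844 to 36854199 set the counting precision, and the replicate spread was larger than it. Alternatives were DESeq2 1.42.0, other scalings, no filter, only the groups compared, a replicate block, and leaving out each library.

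The members and lists were chosen with earlier results of these data known. All 41 are given with their log2 fold change at 500 µg/mL against vehicle. Values per library are given, in each role, for the 2 with the largest fall and the 1 with the smallest, and for those called in vehicle against non-treated; Pcna was added after its values were seen. Of the other lists, at most the 4 with the smallest p and, where 5 or fewer, those called against the list's median are named; the markers Acta1, Pax7, Adipoq and Fabp4 fall outside this rule and were chosen after their values were seen.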

Additional observations from a re-analysis of the deposited data

How the results depend on the processing

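Of 492 fold changes of single members at 500 µg/mL against vehicle, recomputed over 12 settings, 484 kept their direction and side of the threshold, 5 lost the call, 3 gained it and 0 reversed; the genes were Orc1, Gins3 and Dut. Members called higher stayed at 0 in every comparison and setting run. With only the 2 groups compared, members called lower were 15 in vehicle against non-treated, 1 at 20 µg/mL and 14 at 100 µg/mL against vehicle, and 2 at 100 against 20 µg/mL; all genes called were 1023, 324, 1354 and 201 in that order, 1310 at 500 against 100 µg/mL and 1959 at 500 against 20 µg/mL, beside 189, 47, 623, 62, 2853 and 3369 in the fit of 15 libraries. That fit has fewer residual degrees of freedom, and the cause was not tested. All genes called at 20 µg/mL were 73 with no filter and 95 with DESeq2, which called 319 in vehicle against non-treated. With library totals in place of TMM, the split of all genes at 500 against 100 µg/mL was 1238 lower and 1748 higher in place of 1544 and 1309, and at 100 against 20 µg/mL 30 and 38 in place of 19 and 43, while the members called lower were 31 and 1 as before.

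Leaving out a single library gave 2 to 4 members lower in vehicle against non-treated, 3 to 6 at 100 µg/mL against vehicle, and 0 to 1 at 100 against 20 µg/mL. All genes called ran from 42 to 87 in vehicle against non-treated, 12 to 39 at 20 µg/mL, 319 to 421 at 100 µg/mL, 21 to 43 at 100 against 20 µg/mL, 1891 to 5018 at 500 against 100 µg/mL and 2568 to 5154 at 500 against 20 µg/mL; 5018 and 5154 were without JGT 500 replicate 2, and 1891 was without JGT 100 replicate 2. Median log2 fold changes of the members ran from −0.06 to −0.01 at 20 µg/mL, −0.14 to −0.10 at 100 against 20 µg/mL, −0.49 to −0.40 at 500 against 100 µg/mL and −0.62 to −0.56 at 500 against 20 µg/mL.

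Same-numbered libraries did not deviate together: the correlations of their deviations ran from −0.203 to 0.117, and in no comparison were all 3 above 0.1, so the libraries were not treated as pairs. The sample codes of the JGT libraries do group them by replicate number across doses, without saying what the number marks, and the control codes do not. Every library correlated best with its own number at 500 against 100 µg/mL (0.0779 to 0.0971), and at 500 against 20 µg/mL 0 of 3 pairs did (−0.203 to 0.0268). With the replicate block, members called lower were 6, 0, 9 and 37 in vehicle against non-treated and at 20, 100 and 500 µg/mL against vehicle, and 1, 32 and 37 at 100 against 20, 500 against 100 and 500 against 20 µg/mL. Members with few counts, such as Orc1, carry the largest SE: for Orc1 the 95% interval was −0.40 to 0.48 at 100 µg/mL against vehicle and −1.15 to −0.18 at 500 µg/mL.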
